A study of Mus musculus with 32 samples.

Results

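The genes described here are the V1r vomeronasal receptors numbered from Vmn1r55 to Vmn1r185, with pseudogene symbols left out. They are listed by the rule on the symbol alone, whatever their level, and make up 103 of the 49671 genes listed, all annotated as protein coding and all on chromosome 7 (GRCm38). They were measured by RNA-seq in the vomeronasal organ (VNO) neuroepithelium of 32 mice, 4 males and 4 females of each of 4 inbred strains, 1 library per mouse. The labels give the strains as 129S6/SVEV (129, named 129Sv/J by the study), C57/BL6 (B6), SJL/J (SJL) and SWR/J (SWR), and the age of every mouse as 42 days. No mouse carried a transgene or received a treatment, and the study states that all were bought from the same vendor. RNA was taken from whole epithelium, so that fewer cells with a receptor and less of its RNA per cell cannot be told apart.

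V1r receptors are G protein-coupled receptors of the apical VNO neurons, which couple them to the G protein subunit Gnai2 and to the Trpc2 channel. A neuron is thought to express a single V1r gene, and the family is divided by sequence into clades named by letters. Clade e and clade j receptors are known for responses to female sex and estrus cues, among them Vmn1r69 and Vmn1r185 (clade e) and Vmn1r85 and Vmn1r89 (clade j). The ligands of most of the other members are not known. Synonyms in the reference tables placed 39 of the 103 members in a clade, 19 of them in d, 11 in g and 5 in e. Vmn1r70 has synonyms in d and l.

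The members lay in 8 blocks along the chromosome, parted at gaps wider than 0.5 Mb and, for the longest run, at its widest gap of 0.252 Mb. Vmn1r55 to Vmn1r65 (11 members) lay between 5129291 and 6011010, Vmn1r66 to Vmn1r71 (6) between 10272991 and 10754364, and Vmn1r72 to Vmn1r84 (13) between 11664479 and 12369273. Vmn1r85 to Vmn1r89 (5) lay between 13083313 and 13220657, and Vmn1r90 between 14555474 and 14563506. The longest block ran from 20099680 to 23251682 and held 49 members, Vmn1r91 to Vmn1r166. It was followed by Vmn1r167 to Vmn1r183 (16 members, 23503646 to 24063554) and by Vmn1r184 and Vmn1r185 (26260334 to 26618464). In all, 51 members were on the plus strand and 52 on the minus strand.

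How well a member could be counted depended on how much its sequence differed from its copies, since only uniquely placed reads were counted. In the block from Vmn1r91 to Vmn1r166 the nearest other V1r shared a median of 99.8% of coding bases, 47 of the 49 members had a model of 1 exon, and 19 had no window of the length of a read that is absent from every other gene. Of these 19, 14 had no read in any library, and the other 5 had up to 180 reads in all. Outside that block every member had more than 76% of its windows to itself. Among these, Vmn1r62, with 90.9%, still had at most 1 read in a library. How far low counts came from lost reads or from low expression was not tested. The following stretches of coding sequence (bases 437 to 561 of 921) show copies from the block, with capitals at the positions where the 3 genes differ. Vmn1r100 and Vmn1r148 had the same coding sequence, and 1 read in total was counted for them. Vmn1r125 differed from them at 11 of 921 bases, 4 of them in this stretch, and had 190 reads. On GRCm38 the stretches are chr7:20418378-20418502, chr7:22414019-22414143 and chr7:21272615-21272739, all on the plus strand and in coding exons.
Vmn1r100: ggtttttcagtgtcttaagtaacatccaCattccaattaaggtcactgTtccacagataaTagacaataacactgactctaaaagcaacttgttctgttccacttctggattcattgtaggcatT
Vmn1r148: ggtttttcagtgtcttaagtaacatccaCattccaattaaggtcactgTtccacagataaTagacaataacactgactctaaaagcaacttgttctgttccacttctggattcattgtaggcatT
Vmn1r125: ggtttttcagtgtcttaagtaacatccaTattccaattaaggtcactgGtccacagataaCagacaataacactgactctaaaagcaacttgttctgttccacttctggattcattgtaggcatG

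**Figure D1:**
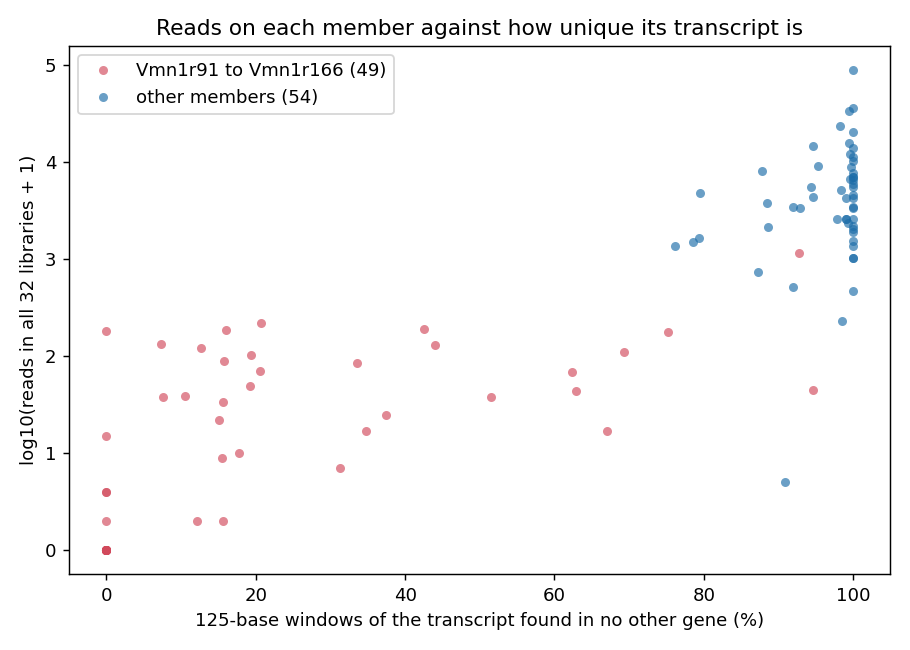
Reads of each member in all 32 libraries (vertical axis, log10 of reads + 1) against the share of read-length windows of its longest transcript that occur in no other gene (horizontal axis, percent), 1 point per member. The 49 members from Vmn1r91 to Vmn1r166 (red) lie mostly at the left of the plot, with single points up to 94.6%, and the other members (blue) lie above 76%.

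Vmn1r86, Vmn1r88 and Vmn1r89 are printed here because they are close in sequence and all had their lowest levels in SJL, by differences of unlike size. Of their 948 coding bases, 65 differed between Vmn1r86 and Vmn1r88, 88 between Vmn1r86 and Vmn1r89 and 120 between Vmn1r88 and Vmn1r89. Bases 450 to 574 hold 37 positions at which the 3 genes are not all alike (capitals). They are chr7:13102374-13102498 (minus strand), chr7:13178168-13178292 and chr7:13219788-13219912 (plus strand), in coding exons.
Vmn1r86: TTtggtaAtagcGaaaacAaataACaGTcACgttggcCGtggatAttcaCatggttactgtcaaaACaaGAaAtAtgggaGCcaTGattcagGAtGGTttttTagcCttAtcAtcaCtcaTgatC
Vmn1r88: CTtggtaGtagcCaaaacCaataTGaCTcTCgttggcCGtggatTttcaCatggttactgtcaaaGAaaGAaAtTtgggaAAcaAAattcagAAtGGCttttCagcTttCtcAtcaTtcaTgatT
Vmn1r89: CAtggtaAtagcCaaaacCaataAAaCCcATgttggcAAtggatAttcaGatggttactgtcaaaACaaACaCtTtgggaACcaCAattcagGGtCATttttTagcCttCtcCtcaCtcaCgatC

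The same comparison is shown for 4 members of the block from Vmn1r167 to Vmn1r183, whose counts did not move alike between strains. Vmn1r170 and Vmn1r175 differed at 17 of 912 coding bases, and Vmn1r169 and Vmn1r176 at 31, compared position by position without gaps. Bases 719 to 843 hold 23 of the 71 positions at which the 4 genes are not all alike (capitals). They are chr7:23606893-23607017 (plus), chr7:23808358-23808482 (minus), chr7:23577903-23578027 (plus) and chr7:23834884-23835008 (minus), again in coding exons.
Vmn1r170: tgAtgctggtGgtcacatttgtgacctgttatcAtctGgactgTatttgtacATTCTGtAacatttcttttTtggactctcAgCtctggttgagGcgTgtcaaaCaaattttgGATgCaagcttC
Vmn1r175: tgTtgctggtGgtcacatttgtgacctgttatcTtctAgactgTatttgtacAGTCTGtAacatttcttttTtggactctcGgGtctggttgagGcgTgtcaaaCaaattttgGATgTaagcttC
Vmn1r169: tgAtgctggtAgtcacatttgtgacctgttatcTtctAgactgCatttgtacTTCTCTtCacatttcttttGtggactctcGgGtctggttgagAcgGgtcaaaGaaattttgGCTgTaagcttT
Vmn1r176: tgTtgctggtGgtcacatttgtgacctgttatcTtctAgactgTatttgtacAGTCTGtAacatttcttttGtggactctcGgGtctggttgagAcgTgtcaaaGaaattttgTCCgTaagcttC

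A library held between 5106398 and 18640871 counted reads, and the members took 0.0928 to 0.149% of them. The share was 0.127 ± 0.0124% in B6, 0.120 ± 0.0142% in 129, 0.113 ± 0.00999% in SWR and 0.109 ± 0.00906% in SJL (SD, n = 8 each), with ranges that overlapped between all strains. The neuroepithelium was checked by its markers. Gnai2 of the apical neurons had a mean of 6044 to 8753 normalized counts in the 4 strains, and Omp of mature sensory neurons 16606 to 19534. The 5 apical markers summed to 12172 to 13961 in B6 and to 14610 to 17751 in the other strains, so that the sum was lowest in B6. Gnai2 was the largest part of that sum, and 0 of the 5 were called in any pair (19.8% of all genes). The LFC of B6 minus 129 was -0.74 for Pde4a, -0.46 for Gnai2, -0.44 for Ncam2, -0.13 for Nrp2 and -0.03 for Meis2. By the edgeR test described below, the FDR was 0.50 for Meis2, 0.034 for Nrp2 and at most 4.1e-07 for the others. Pde4a had a lower mean in SWR (322) than in B6 (346), and Ncam2 a lower mean in SJL (758) than in B6 (800). Genes of families used in hair, gut, germ line and taste cells, taken as a background of a library, made up the fewest reads in 129, where the strain median was 1.24 rpm (scaled to library size, Pramef8 left out), and the most in B6, where it was 8.24 rpm. Macrophage markers were also lowest in 129, with sums of 309 to 450 against 447 to 1132 in the other strains. The 3 olfactory sustentacular markers summed to 34.1 to 488 in B6, 13.3 to 42.5 in SWR, 1.25 to 29.2 in SJL and 8.86 to 18.6 in 129, and the 2 of them that were tested were called higher in B6 than in each other strain. So was Gnal, 1 of 4 tested markers of olfactory sensory neurons. The sum of the 5 markers listed for these neurons went the other way and was lowest in B6. It was 2175 to 2672 in B6, 2541 to 2878 in SWR, 2856 to 3571 in 129 and 3121 to 4161 in SJL. Of the 4 ciliated cell markers, 2 were called lower in SJL and 3 in SWR than in 129, where their sum ran from 261 to 4305. The part of these markers in the values of the members was not tested.

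The level of the members was compared per exon length, as TPM (transcript abundance scaled to the same total in each library). Vmn1r89, a clade j receptor of estrus cues, was the highest at 117 ± 31.2 TPM (SD over 32 libraries). The next were Vmn1r64 (41.4 ± 11.1), Vmn1r85 (31.2 ± 14.8), Vmn1r171 (27.8 ± 11.8) and Vmn1r184 (23.7 ± 5.57). Vmn1r69, Vmn1r56, Vmn1r71, Vmn1r169 and Vmn1r83 followed, with 20.8 down to 14.8 TPM. The SD of Vmn1r71, 17.0, was close to its mean of 17.2, and its strains are given below. The order depended on the exon models, which for Vmn1r64 and Vmn1r56 hold 1 exon. By reads per coding length, chosen after the data were seen, Vmn1r89 stayed first, Vmn1r85 and Vmn1r184 came next, Vmn1r64 was at rank 19 and Vmn1r56 at rank 20. In clade d the median member had 1.45 TPM and in clade g 4.76, while the 5 clade e members had up to 20.8 TPM, with a median of 13.5. Of the 64 members without a clade name, 47 belong to the block from Vmn1r91 to Vmn1r166, and the median was 0.373 TPM.

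Strains were compared in their 6 pairs with the quasi-likelihood test of edgeR, fitted over 18382 genes with sex as a covariate. A call needed a log2 fold change (LFC) beyond 1 in either direction and, after Benjamini-Hochberg adjustment over these genes, an FDR below 0.05. Of the 103 members, 59 had enough reads to be tested, and the other 44 had at most 183 reads in all libraries together. A member with reads in 1 or 2 strains could enter the test through those strains alone, so that the counts below describe the members tested. At least 1 pair was called for 34 of the 59, against 19.8% of all genes tested. The number of pairs called was 0 for 25 members, 1 or 2 for 9, and 3, 4 or 5 for 8, 9 and 8 members.

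B6 and 129 differed in 21 members, 12 higher in B6 (8.72% of all genes) and 9 lower (2.4%). SWR and 129 differed in 25, 17 higher in SWR (4.62%) and 8 lower (3.11%). SJL and B6 differed in 23, with 13 higher in SJL (2.67%) and 10 lower (5.33%), and SWR and B6 in 16, with 11 higher in SWR (2.52%) and 5 lower (5.53%). SWR was higher than SJL in 13 members (2.19%) and lower in 6 (2.31%). The smallest number was found between SJL and 129, with 6 higher in SJL (5.61%) and 4 lower (2.76%). The median LFC of the 59 members lay between -0.11 and 0.24 in the 6 pairs, and that of all genes between -0.02 and 0.02, so that members moved in both directions rather than together. The pairs share strains, and their counts are not independent of each other.

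**Figure D2:**
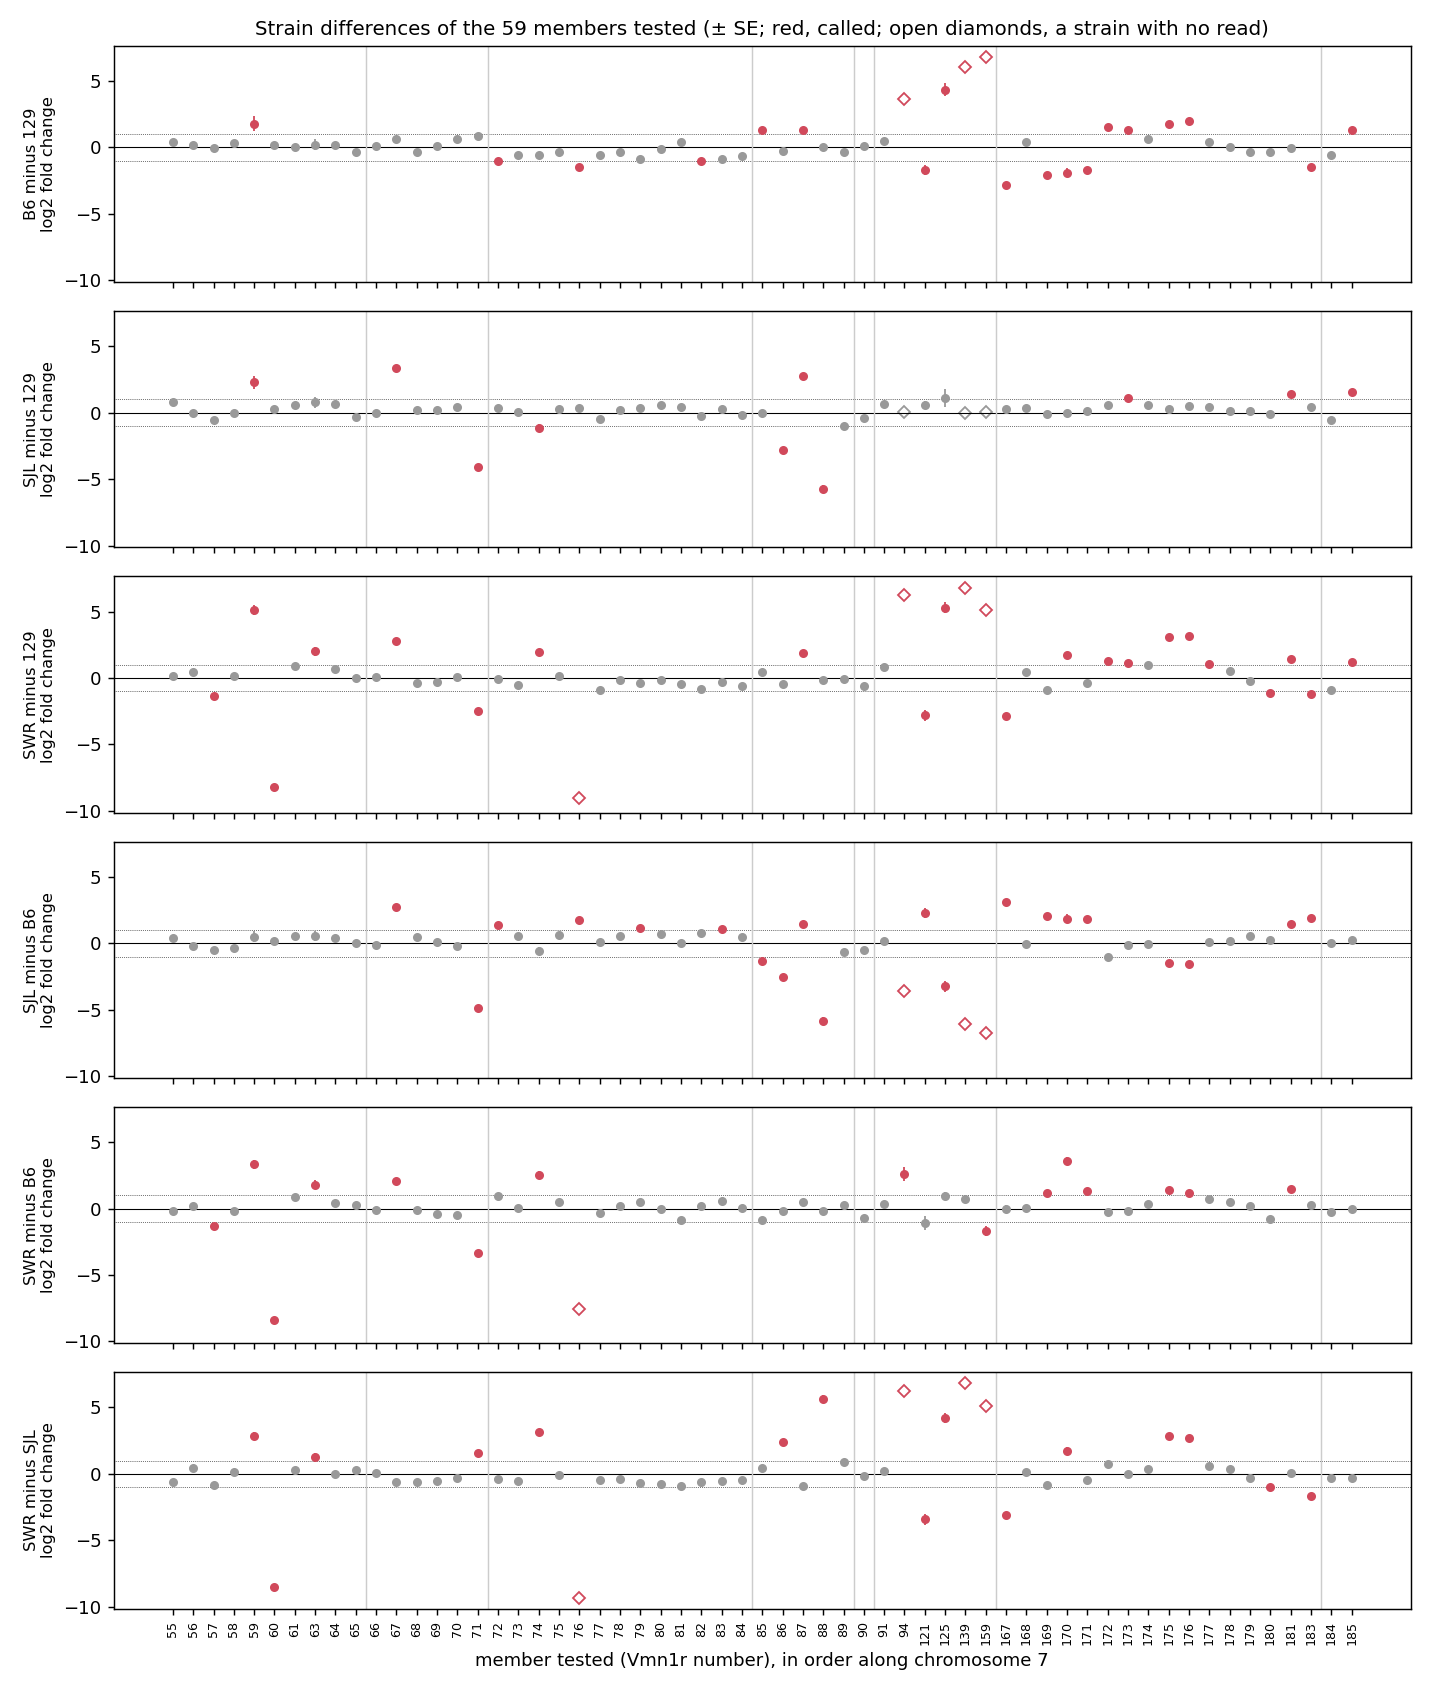
Log2 fold change (vertical axis, ± SE taken from the F statistic) of the 59 members tested, in order along chromosome 7 (horizontal axis), in 6 strain pairs. The SE can be too small for a strain with few reads. Red marks called differences, open diamonds a pair with a strain that had no read (the fitted value is then no measure of size), dotted lines the limit of 1, and grey vertical lines part the blocks. The SJL minus 129 panel has 10 red points, and the SWR minus 129 panel 25.

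Reads of all strains were aligned to the B6 genome, and a member whose 129, SJL or SWR sequence is missing or differs from it loses reads. The part of such differences in the values below was not tested.

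In the block from Vmn1r55 to Vmn1r65, which holds 8 clade d receptors, Vmn1r60 was almost without reads in SWR, and Vmn1r59 had the opposite pattern. Vmn1r60 had 144 to 278 normalized counts in 129 (median 196), 191 to 246 in B6 (median 233) and 197 to 283 in SJL (median 260). In SWR it had 0 to 1.77, with at most 2 reads in a library. No SWR library overlapped another strain, and SWR was called lower than each. The fitted LFC was -8.22 against 129 (FDR = 6.7e-27), -8.39 against B6 and -8.53 against SJL. With so few SWR reads these values give the direction and no precise size. Vmn1r59 (clade d) had 30.4 to 53.3 normalized counts in SWR (median 43.8). It had at most 1.87 in 129, 1.02 to 17.6 in B6 (median 2.71) and 1.04 to 9.89 in SJL (median 6.71). All SWR libraries were above those of the other strains, with an LFC of 5.12 ± 0.41 against 129 (FDR = 1.7e-12), 3.34 ± 0.34 against B6 and 2.83 ± 0.31 against SJL. With at most 2 reads of Vmn1r59 in a 129 library, the value against 129 gives no precise size. Vmn1r59 entered the test through SWR alone, so that a call was likely from the outset. B6 and SJL overlapped each other.

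The other members of the block moved less. Vmn1r63 was called higher in SWR than in the 3 other strains (LFC 1.23 to 2.01), though its range met those of B6 and SJL, with 6.34 to 21.3 normalized counts in SWR and at most 9.99 elsewhere. It entered the test through SWR alone. Vmn1r57 was lower in SWR than in 129 (LFC -1.39 ± 0.12) and B6 (-1.35 ± 0.12). Vmn1r58, the member of the block with the most reads, had 529 to 859 normalized counts over all libraries and no called pair. Vmn1r56 and Vmn1r64 were not called either, with LFC of at most 0.43 and 0.65. Vmn1r62 had 4 reads in all 32 libraries and was not tested. The block summed to a mean of 1864 ± 118 normalized counts in B6, 1778 ± 108 in SJL, 1695 ± 89.3 in SWR and 1628 ± 161 in 129 (SD, n = 8).

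**Figure D3:**
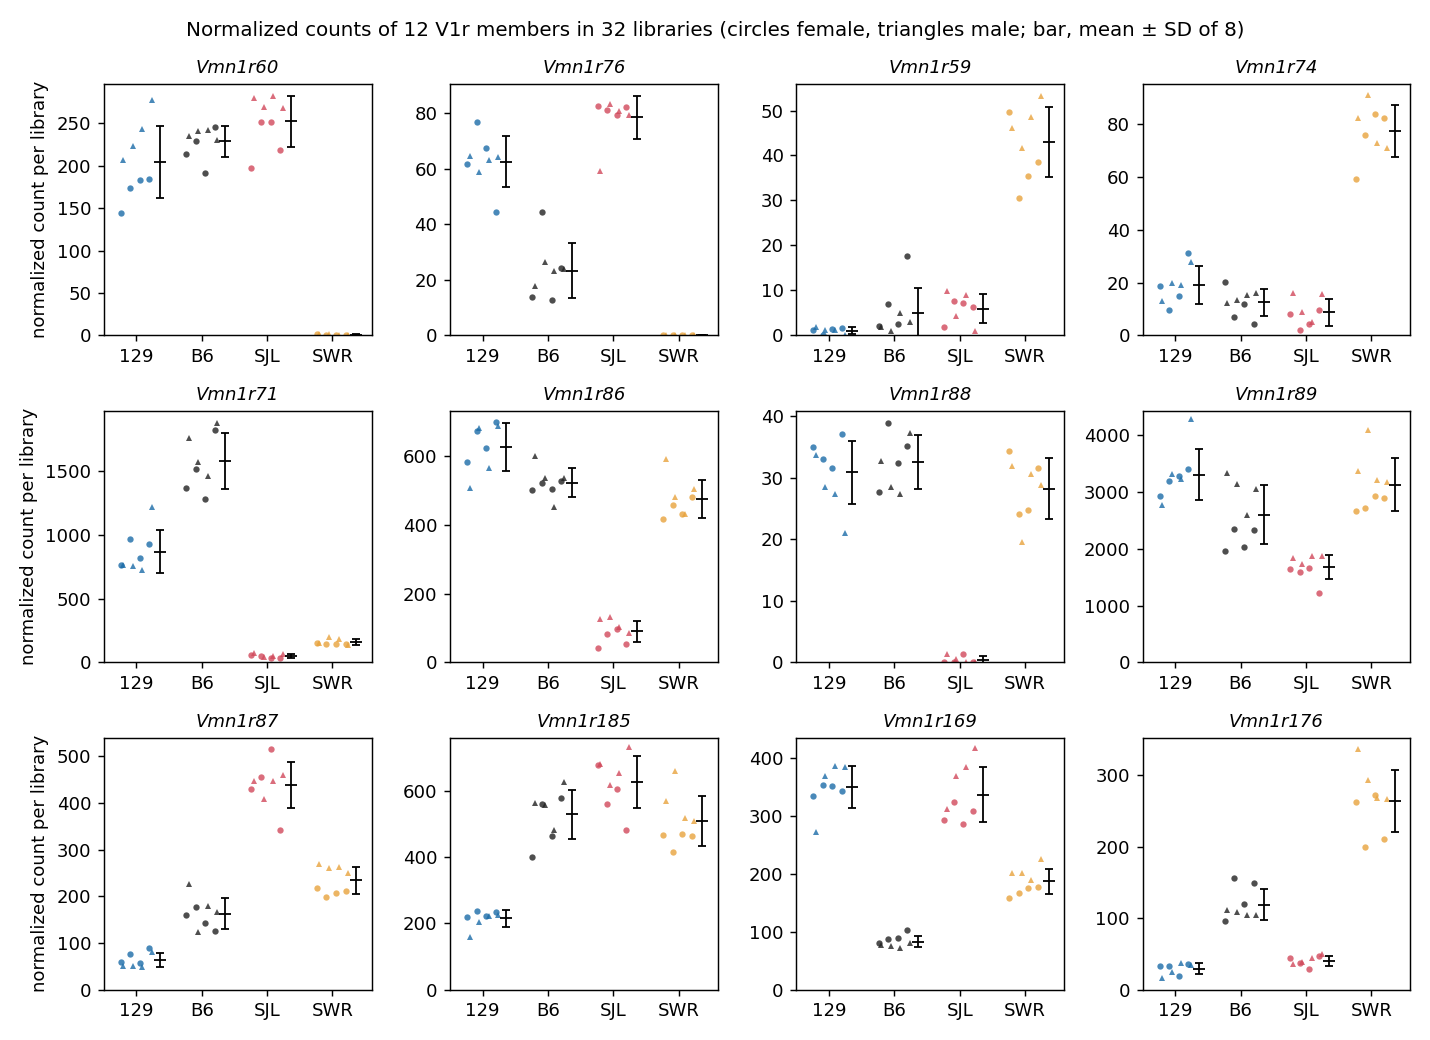
Normalized counts (vertical axis) of 12 members in each of the 32 libraries by strain (horizontal axis). Circles are females, triangles males, and the bar gives mean ± SD of the 8 mice of a strain. SWR lies at or near 0 for Vmn1r60 and Vmn1r76, SJL for Vmn1r88, and 129 is the lowest strain for Vmn1r87 and Vmn1r185.

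In the block from Vmn1r66 to Vmn1r71, mostly clade e, the differences were those of Vmn1r71 and Vmn1r67, which went in opposite directions. Vmn1r71 had 1284 to 1882 normalized counts in B6 (median 1543) and 728 to 1222 in 129 (median 791). It had 35.8 to 75.6 in SJL (median 48.8) and 140 to 198 in SWR (median 151). The 4 strains did not overlap, and SJL was lower than B6 by an LFC of -4.91 ± 0.13 (FDR = 3.0e-26) and lower than 129 by -4.05 ± 0.13. SJL was also lower than SWR, the LFC of SWR minus SJL being 1.59 ± 0.14. B6 minus 129 was 0.86 ± 0.10, which did not reach the limit of 1. Vmn1r67 had 161 to 257 normalized counts in SJL (median 211) and 115 to 158 in SWR (median 138), above all libraries of 129 (5.96 to 29.7) and B6 (13.97 to 57.05). Its LFC was 3.36 ± 0.21 for SJL minus 129 (FDR = 2.2e-15) and 2.11 ± 0.20 for SWR minus B6.

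Vmn1r69, a receptor of female cues, was found in all strains and was not called in any pair, since no LFC passed the limit of 1. Its normalized counts were 275 to 480 in 129 (median 357), 297 to 474 in B6 (median 373), 357 to 475 in SJL (median 425) and 213 to 406 in SWR (median 282). These ranges overlapped, and the greatest difference was SWR minus SJL, an LFC of -0.55 ± 0.10 (FDR = 5.0e-05). SWR was also lower than B6 (LFC -0.44, FDR = 6.7e-04) and 129 (LFC -0.32, FDR = 0.011). Vmn1r70 had 40.2 to 127 normalized counts over all libraries, with an LFC of 0.62 ± 0.13 for B6 minus 129 as its greatest difference, and was not called. Vmn1r66 and Vmn1r68 were not called. The sum of this block had a mean of 1078 ± 140 in SWR, 1291 ± 113 in SJL, 1788 ± 264 in 129 and 2553 ± 325 in B6 (SD, n = 8).

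The block from Vmn1r72 to Vmn1r84 holds 11 clade g members. All 13 members were tested, and 6 were called in at least 1 pair (19.8% of all genes). Vmn1r76 had no read in any of the 8 SWR libraries. It had 44.5 to 76.7 normalized counts in 129 (median 63.7), 12.8 to 44.4 in B6 (median 23.6) and 59.3 to 83.2 in SJL (median 81.0). Set against a floor of 3 reads over the 8 SWR libraries, Vmn1r76 was at least 182-fold higher in 129, 64.9-fold higher in B6 and 228-fold higher in SJL. B6 was below 129 by an LFC of -1.45 ± 0.18 (FDR = 1.4e-07) and did not overlap it, though its highest library, 44.4, was close to the lowest of 129, 44.5. Vmn1r76 had all of its transcript windows to itself.

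Vmn1r74 was highest in SWR, with 59.2 to 91.0 normalized counts (median 79.3) against at most 31.3 in a library of another strain. Its LFC was 1.99 ± 0.23 for SWR minus 129, 2.56 ± 0.24 for SWR minus B6 and 3.12 ± 0.25 for SWR minus SJL (FDR = 2.9e-12). The other 4 called members of the block, Vmn1r72, Vmn1r79, Vmn1r82 and Vmn1r83, were lowest in B6. Vmn1r82 had 102 to 192 normalized counts in B6 (median 150) and 260 to 321 in 129 (median 300), an LFC of -1.03 ± 0.10. Vmn1r83 had 94.3 to 164 in B6 (median 141) and 207 to 337 in SJL (median 296), an LFC of 1.11 ± 0.11 for SJL minus B6. This LFC fell below 1 with the background of a library in the model (0.93 with Pramef8 counted, 0.99 with Pramef8 left out). The sum of the block was lower in B6 (1371 to 1770) than in 129 (2036 to 2771) and SJL (2233 to 3057), with no overlap, while SWR (1549 to 2193) overlapped B6 and 129. As stated above, the sum of the apical markers was also lowest in B6, mostly through Gnai2. Pde4a and Ncam2 were also lower in B6 than in 129, while none of these markers passed the limit on the LFC. The part of this in the block was not tested.

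The block from Vmn1r85 to Vmn1r89 spans 0.137 Mb and holds the clade j receptors of estrus cues. All 5 members were tested and 4 were called in at least 1 pair (19.8% of all genes). Of the 3 related sequences printed above, all were lowest in SJL, and Vmn1r86 and Vmn1r88 passed the limit on the LFC while Vmn1r89 did not. How far the 3 genes differ from each other in this was not tested. Vmn1r88 had 0 to 1.42 normalized counts in SJL, where 5 of 8 libraries had none. It had 21.0 to 37.1 in 129 (median 32.3), 27.4 to 38.9 in B6 (median 32.5) and 19.6 to 34.4 in SWR (median 29.7). SJL did not overlap the other strains, with a fitted LFC of -5.75 against 129 and -5.82 against B6 (FDR = 1.3e-17), while the other 3 strains overlapped. With so few SJL reads these values give no precise size.

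Vmn1r86 had 43.6 to 131 normalized counts in SJL (median 91.8) and 418 to 699 in the other 3 strains. The LFC of SJL was -2.79 ± 0.13 against 129 (FDR = 2.7e-19) and -2.52 ± 0.13 against B6, and the LFC of SWR minus SJL was 2.37 ± 0.13. Vmn1r89 had 1226 to 1879 in SJL (median 1694) and 1970 to 4274 in the other strains. SJL again did not overlap them, but its LFC against 129, -0.99 ± 0.08 (FDR = 2.4e-12), did not pass the limit of 1. It passed when any of 4 libraries was left out (129 male 1, 2 or 3, or SJL female 3), the LFC reaching -1.04 without 129 male 1.

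Vmn1r87 (clade k) and Vmn1r85 (clade j) had other patterns. Vmn1r87 had 47.7 to 89.0 normalized counts in 129 (median 58.1), 124 to 225 in B6 (median 162), 198 to 269 in SWR (median 234) and 341 to 515 in SJL (median 447). Only B6 and SWR overlapped, and the LFC against 129 was 1.34 ± 0.13 in B6, 1.86 ± 0.12 in SWR and 2.76 ± 0.12 in SJL (FDR = 1.1e-19). Vmn1r85 had 1723 to 2088 in B6 (median 1890), above 129 (593 to 862), SJL (546 to 889) and SWR (848 to 1355). B6 was called against 129 (LFC 1.33 ± 0.08) and SJL (SJL minus B6, -1.35 ± 0.08, FDR = 7.9e-16), but not against SWR (SWR minus B6, -0.87 ± 0.08). The sum of the block was 2167 to 3313 in SJL and 3952 to 6208 in the other strains. Vmn1r90, alone in its block, had 100 to 235 normalized counts and was not called.

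**Figure D4:**
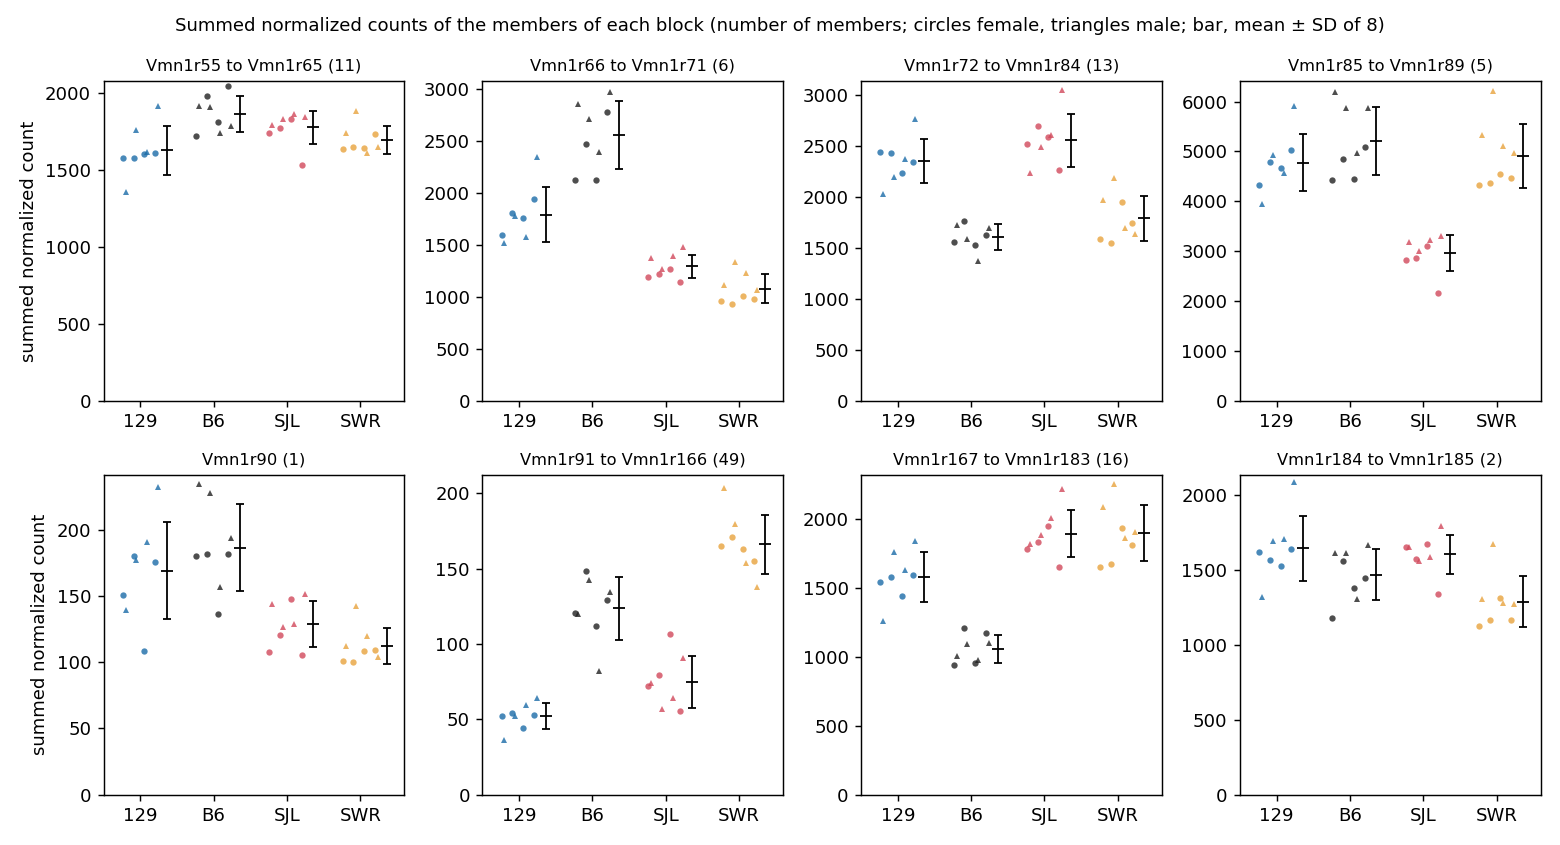
Summed normalized counts (vertical axis) of the members of each of the 8 blocks in each library, by strain (horizontal axis). Circles are females, triangles males, and the bar gives mean ± SD of 8 mice. The 49 members from Vmn1r91 to Vmn1r166 together reach at most 204, below the sums of every other block except Vmn1r90.

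The 49 members from Vmn1r91 to Vmn1r166 had few reads, and those were found mostly in B6 and SWR. All 49 together had 1452 reads in the 8 libraries of SWR, on 31 of the members, and 901 in B6, on 32. In SJL they had 637 reads on 20 members, and in 129 414 reads on 17. Vmn1r91, at the edge of the block, took 1151 of these reads and was found in every library at 14.04 to 62.5 normalized counts with no called pair. Without it, an alternative chosen after the data were seen, the sum was 22.5 to 30.998 normalized counts in 129 and 28.8 to 44.0 in SJL, with an overlap. It was 53.8 to 111 in B6, above both, and 102 to 152 in SWR.

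Only 6 of the 49 members had enough reads to be tested, and 5 were called in at least 1 pair (19.8% of all genes). Each of the 5 passed the filter on low counts through the strains where it was high. A call was thus likely from the outset, and their number is no result about the block. Vmn1r139 had 4.16 to 14.2 normalized counts in B6 (median 6.21) and 7.96 to 22.2 in SWR (median 12.9), and no read in 129 or SJL. It was at least 21.9-fold higher in B6 and 36.9-fold higher in SWR than in 129, at the floor of 3 reads over 8 libraries. Its coding sequence is the same as that of Vmn1r132, which had no read. A read pair within that sequence alone could not be placed uniquely and was counted for neither gene. Where the counted reads of Vmn1r139 lay, and so their gene of origin, was not examined. Vmn1r159 had 4.06 to 32.9 in B6 (median 11.98) and 1.69 to 6.17 in SWR (median 4.17), and none in 129 or SJL, at least 34.3-fold higher in B6 than in 129. B6 also exceeded SWR (SWR minus B6, -1.68 ± 0.38, FDR = 1.2e-03), with some overlap.

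Vmn1r125, printed above, had 4.39 to 12.2 normalized counts in B6 (median 6.81) and 9.89 to 19.0 in SWR (median 14.6). In all 8 libraries it had 2 reads in 129 and 6 in SJL. The ratio to 129 was 30.1 in B6 (95% exact interval 7.94 to 255, counting error only) and 58.5 in SWR (15.9 to 489). Vmn1r94 had 3.38 to 13.3 in SWR (median 9.31) and at most 6.94 in B6, with none in 129 or SJL. It was at least 24.3-fold higher in SWR than in 129, and its nearest copy, Vmn1r142, shares 99.9% of its coding bases.

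Vmn1r121 had the opposite pattern, with 1.19 to 15.0 normalized counts in 129 (median 8.64) and 6.32 to 20.3 in SJL (median 13.1), against 0 to 5.08 in B6 and 0.785 to 1.80 in SWR. The LFC of SWR minus SJL was -3.42 ± 0.41 (FDR = 2.6e-08), without overlap, and that of SWR minus 129 was -2.81 ± 0.43. The background of a library was lowest in 129 (0.498 to 2.84 rpm) and overlapped between SJL (2.49 to 9.46), SWR (1.56 to 13.5) and B6 (4.10 to 26.0). The highest libraries were B6 female 2 and 4, which also held the highest B6 values of Vmn1r94 (6.94, female 2) and Vmn1r159 (32.9, female 4). With the background as a covariate, with or without Pramef8, all 5 stayed called, under the same limit of the filter.

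**Figure D5:**
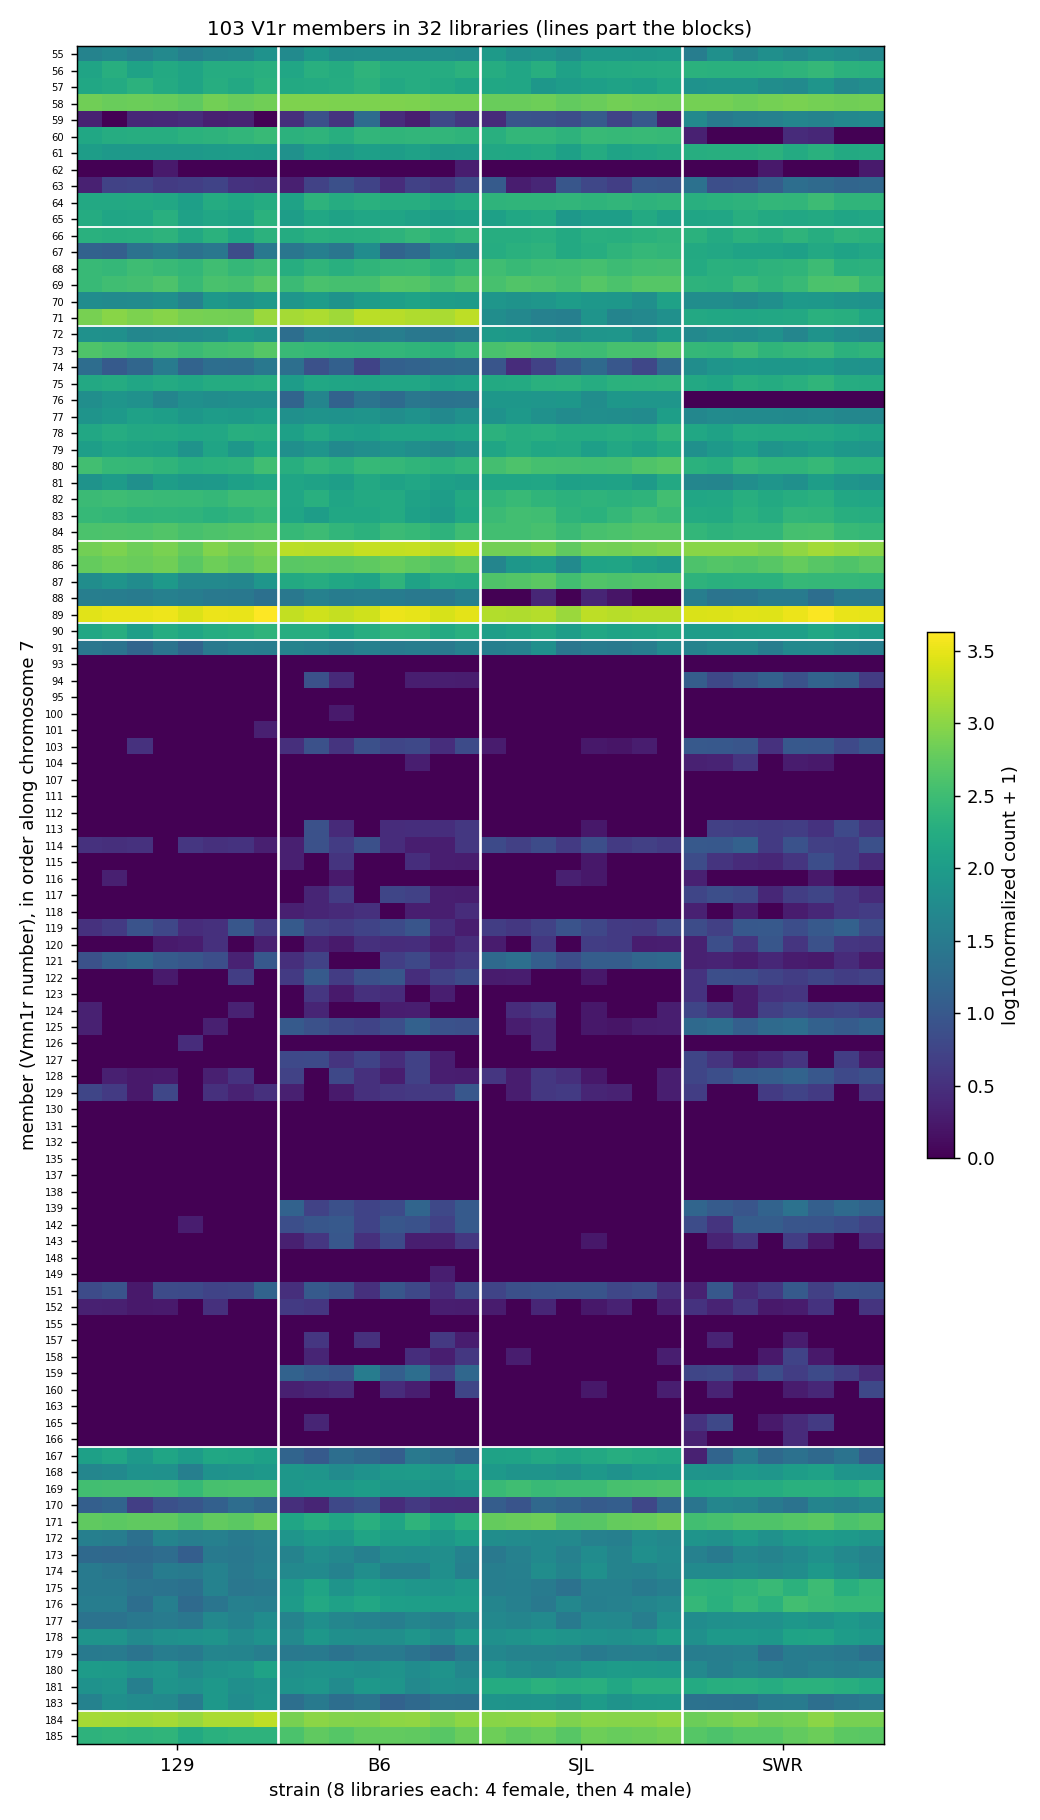
Normalized counts of all 103 members (rows, in order along chromosome 7) in the 32 libraries (columns, by strain), as log10 of the count + 1 from dark (0) to yellow (highest). The dark band in the block from Vmn1r91 to Vmn1r166 shows the members with few or no reads, with its lighter cells in the B6 and SWR columns, and Vmn1r89 is the brightest row.

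Across all members, 78 had more than 3 reads in at least 1 library. Of these, 21 had 3 reads or fewer in every 129 library, 20 in every SJL library, 6 in every B6 library and 3 in every SWR library. In 129 they were Vmn1r59 and 20 members of the block from Vmn1r91 to Vmn1r166, in SJL Vmn1r88 and 19 members of that block, and in SWR Vmn1r60, Vmn1r76 and Vmn1r121. These numbers moved with the limit. At 0 reads they were 12 in 129, 8 in SJL, 0 in B6 and 1 in SWR, and at 10 reads or fewer they were 24, 23, 23 and 16.

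The block from Vmn1r167 to Vmn1r183 adjoins it, and 12 of its 16 members were called in at least 1 pair (19.8% of all genes). Between SJL and 129, 2 of the 16 were called (8.38% of all genes), against 9 between B6 and 129 (11.1%), 8 between SJL and B6 (7.99%), 10 between SWR and 129 (7.73%), 6 between SWR and B6 (8.05%), and 6 between SWR and SJL (4.50%). Members moved in both directions within these 0.560 Mb. Vmn1r167, Vmn1r169, Vmn1r171 and Vmn1r183 were lower in B6 than in 129 and SJL, and Vmn1r175 and Vmn1r176 were higher.

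Vmn1r169 had 72.0 to 103 normalized counts in B6 (median 80.6), 159 to 226 in SWR (median 183), 272 to 387 in 129 (median 352) and 287 to 418 in SJL (median 318). Only 129 and SJL overlapped, with an LFC of B6 minus 129 of -2.09 ± 0.09 (FDR = 2.1e-20) and of SWR minus B6 of 1.18 ± 0.09. Vmn1r171, with the highest TPM of the block, had 130 to 228 in B6 (median 161) and 344 to 730 in the other strains. Its LFC was -1.71 ± 0.11 for B6 minus 129, 1.84 ± 0.11 for SJL minus B6 (FDR = 3.4e-16) and 1.35 ± 0.11 for SWR minus B6. Vmn1r167 was low in both B6 (9.72 to 28.5) and SWR (1.18 to 31.8) and high in 129 (89.2 to 145) and SJL (123 to 181). Vmn1r183 had the same order, with at most 31.01 in B6 and SWR and at least 32.8 in 129 and SJL.

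Vmn1r175 and Vmn1r176 were highest in SWR, and each is close in sequence to a member that was lowest in B6. Vmn1r175 had 193 to 306 normalized counts in SWR (median 229), 75.9 to 129 in B6 (median 88.4), 20.6 to 39.3 in 129 (median 27.496) and 22.1 to 36.9 in SJL (median 35.0). Its LFC was 3.12 ± 0.13 for SWR minus 129 (FDR = 2.2e-20), 1.39 ± 0.11 for SWR minus B6 and -1.46 ± 0.13 for SJL minus B6. Vmn1r176 had 199 to 336 in SWR (median 267), 95.9 to 155 in B6 (median 110), 16.8 to 36.9 in 129 (median 33.4) and 28.4 to 50.1 in SJL (median 41.6), and an LFC of 3.17 ± 0.14 for SWR minus 129. SWR and B6 did not overlap each other or the other strains in either gene, while 129 and SJL overlapped.

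Vmn1r170 differed from Vmn1r175 at 17 coding bases, as shown above, and was also highest in SWR, with 23.0 to 45.7 normalized counts (median 39.2). Unlike Vmn1r175 it was lowest in B6, with 1.39 to 6.58 (median 2.08), against 3.75 to 19.1 in 129 and 4.92 to 15.6 in SJL. The LFC of SWR minus B6 was 3.603 ± 0.30 (FDR = 5.5e-12) and that of B6 minus 129 was -1.89 ± 0.34. The difference between these near copies was not tested as such.

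The remaining called members of the block were Vmn1r172, Vmn1r173, Vmn1r177, Vmn1r180 and Vmn1r181. Vmn1r172 and Vmn1r173 were lowest in 129, where Vmn1r173 had 11.2 to 33.2 normalized counts (median 17.7) and was called against all 3 other strains with LFC of 1.11 to 1.28. Vmn1r177 was higher in SWR than in 129 (LFC 1.07 ± 0.16). This call ended with the background of a library in the model (0.89 with Pramef8 counted, 0.86 with Pramef8 left out). Vmn1r180 was lower in SWR than in 129 (LFC -1.12 ± 0.14) and SJL (-1.02 ± 0.14). Vmn1r181 had 150 to 209 in SJL and SWR, above all libraries of 129 and B6 (35.98 to 85.6), with an LFC of 1.42 ± 0.12 for SJL minus 129 and 1.46 ± 0.12 for SWR minus B6.

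Vmn1r185, a clade e receptor of female cues, was lowest in 129, and its neighbour Vmn1r184 was highest there. Vmn1r185 had 158 to 237 normalized counts in 129 (median 221), 400 to 627 in B6 (median 560), 483 to 731 in SJL (median 635) and 415 to 660 in SWR (median 490). The 129 libraries were below all others, which overlapped, and the LFC against 129 was 1.29 ± 0.09 in B6, 1.53 ± 0.09 in SJL (FDR = 6.1e-16) and 1.23 ± 0.09 in SWR. Vmn1r184 had 1160 to 1860 in 129 (median 1401) and 656 to 1065 in the other strains. Its LFC against 129 was -0.60 ± 0.08 in B6, -0.55 ± 0.08 in SJL and -0.89 ± 0.08 in SWR, and it was not called.

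By strain, 4 members were lower in 129 than in all 3 other strains (2.11% of all genes), namely Vmn1r59, Vmn1r87, Vmn1r173 and Vmn1r185, and 0 were higher (0.707%). In B6, Vmn1r159 was higher than in all other strains (1.78%) and Vmn1r169, Vmn1r170 and Vmn1r171 were lower (0.827%). In SJL, Vmn1r71, Vmn1r86 and Vmn1r88 were lower (0.473%) and 0 were higher (0.49%). In SWR, 7 were higher (0.588%) and 2 lower (0.495%). The 7 were Vmn1r59, Vmn1r63, Vmn1r74, Vmn1r94, Vmn1r170, Vmn1r175 and Vmn1r176, and the 2 were Vmn1r60 and Vmn1r76. Among the members higher in a strain, Vmn1r59, Vmn1r63 and Vmn1r94 entered the test only through SWR, and Vmn1r159 only through B6. Their calls were likely from the outset, so that the number higher in SWR is no result about that strain. With the females alone 34 members were called in at least 1 pair, 30 of them among the 34 called with all libraries, and with the males alone 31, all of them among those 34 (alternatives chosen after the data were seen). The share of all genes called in each sex alone is not given here.

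The sexes were compared over all strains, with strain in the model, and a call needed an LFC beyond 1 and an FDR below 0.01. No member was called by edgeR (0.0381% of all genes) or by DESeq2, with 15 and 16 members at an unadjusted p under 0.05 (8.97% of all genes by edgeR). The LFC of males minus females lay between -0.33 and 0.41. It was above 0 in 46 of the 59 members, with a median of 0.09 against 0.00 over all genes, and the values of members within a library are not independent. Vmn1r89 had the lowest FDR. Its normalized counts were 1226 to 3411 in 16 females (median 2504) and 1725 to 4274 in 16 males (median 3160), with the mean of males higher in all 4 strains. The LFC was 0.28 ± 0.06 (FDR = 0.011), so that neither limit was passed. In B6 the 4 males (2589 to 3326) lay above the 4 females (1970 to 2339). The males were also above the females in SJL and SWR, and in 129 the sexes overlapped. Vmn1r60 (LFC 0.29 ± 0.07, FDR = 0.081) and Vmn1r69 (0.28 ± 0.07, FDR = 0.090) were also higher in males on average in all 4 strains. Gnai2 and Omp differed by 0.07 and 0.00 on the same scale, with FDR of 0.68 and 0.99.

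Whether the sex difference itself varied among strains was tested by the 3 interaction terms together, at an FDR below 0.05. This called 0 members (0.0163% of all genes) with edgeR and with DESeq2, with 5 and 6 members at an unadjusted p under 0.05 (8.94% of all genes by edgeR). The lowest FDR, 0.39, was that of Vmn1r86, whose mean was 69.6 ± 25.3 normalized counts in SJL females and 111 ± 21.4 in SJL males (n = 4 each), while 129 had 645 ± 52.4 in females and 611 ± 89.1 in males. Without the filter on low counts Vmn1r86 was called (FDR = 0.021). Vmn1r169 and Vmn1r180 were next, with FDR of 0.39 and 0.49. Vmn1r169 had 303 ± 17.1 in SJL females and 371 ± 44.0 in SJL males, and in B6 the order was the other way, 90.1 ± 9.33 and 76.2 ± 3.31.

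Genes that act with V1r receptors were taken from 2 lists. Of 10 genes of signal transduction, 9 were tested and 2 were called in at least 1 strain pair, against 19.8% of all genes. Plcb2, a phospholipase C, was higher in B6 than in 129 (LFC 1.05 ± 0.09) and in SWR than in 129 (1.001 ± 0.09), with means of 92.0 ± 15.2 normalized counts in 129 and 190 ± 24.5 in B6. Cnga4, a cyclic nucleotide-gated channel subunit, was lower in SWR than in SJL (LFC -1.09 ± 0.06). Gnai2, Gng8, Gnb1, Xntrpc, Ano1, Ano2 and Omp were not called, since no LFC passed the limit of 1. Their LFC of B6 minus 129 was -0.76 for Xntrpc, -0.63 for Ano1, -0.60 for Gnb1 and -0.46 for Gnai2. It was -0.24 for Omp, -0.06 for Gng8 and -0.02 for Ano2. Trpc2 itself is listed with 0 reads in every library, where the overlapping gene Xntrpc had a mean of 715 to 1213 normalized counts. Of 13 factors of neuron identity and receptor choice, among them Meis2, Bcl11b, Lhx2 and Ldb1, all were tested and 0 were called in any pair by the limits above. Smaller differences were found, with an LFC of B6 minus 129 of -0.59 for Lhx2 and Atf5 and -0.49 for Bcl11b. That of Ldb1 was -0.19, that of Meis2 -0.03 and that of Ebf1 0.17.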

How the data were processed

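Neuroepithelium RNA of individual mice was sequenced as stranded, ribosomal RNA-depleted pairs. The authors trimmed the reads, aligned them with STAR to GRCm38 and deposited raw counts of uniquely placed read pairs per gene. They also deposited a table of signal values, the counts of a library divided by its DESeq2 size factor, which are called normalized counts here. Columns were assigned to mice by the labels, and 0 columns were left without a sample. The version of the aligner is not given here.

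Members were taken by symbol. The members, marker lists and pathway lists were chosen with earlier results of these data known, so that none of them is independent of these libraries. The 6 strain pairs and the sexes were fitted in 1 additive model of strain and sex, and the interaction in a model with both, by the quasi-likelihood test of edgeR 4.0.16 (R 4.3.3) on the counts, with TMM scaling and its filter on low counts. All p-values were adjusted by the Benjamini-Hochberg method over the 18382 genes tested. The ± of an LFC is its absolute value over the square root of the F statistic. It can be too small where a strain had only a few reads. The scripts were tested on simulated data. TPM was computed from exon lengths, and coding sequences were read from GENCODE transcripts of GRCm38, an annotation other than that of the counts, in which 92 members matched by identifier and 11 by symbol. Synonyms and clades came from RefSeq tables.

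Named members were those the study names, those set apart in a strain without overlap, the 3 largest called differences of a pair without overlap, the 10 highest by TPM, the 3 with the smallest FDR for sex and for the interaction, and called members at or under 3 reads in all 8 libraries of a strain. Other members are named for their blocks, and the sequences printed were chosen after values were seen. Intervals and floors cover counting error only, and p-values measure the spread between mice of a strain. Alternatives were DESeq2 1.42.0, its size factors, no filter, other thresholds, a background covariate, a replicate block and leaving out each library. Others, chosen after seeing the data, were a background without Pramef8, coding length and each sex alone. Any 2 libraries of a group differed by more than sampling noise.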

Additional observations from a re-analysis of the deposited data

Results flagged for a closer look

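Within a strain, 10 sets of 8 libraries had an extreme library whose gap to the next exceeded a limit of 0.526 of the whole range, of 103 sets examined. Chance flags about 1 in 20 such sets. The cause was not tested for any of them. Vmn1r76 had its highest B6 value in female 2 (44.4 normalized counts, next 26.4) and its lowest SJL value in male 1 (59.3, next 79.3). Vmn1r89 was highest in male 4 of 129 (4274, next 3411) and lowest in female 4 of SJL (1226, next 1592). Female 4 of SJL was also the lowest of its strain for Vmn1r175 (22.1, next 30.5). In 129, male 1 was the lowest for Vmn1r185 (158, next 203) and for Vmn1r169 (272, next 335), and male 4 was the highest for Vmn1r184 (1860, next 1491). Vmn1r59 had its highest B6 value in female 4 (17.6, next 6.94), and Vmn1r94 in female 2 (6.94, next 1.71).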

How the results depend on the processing

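The number of members called in at least 1 pair was 34, and 34 to 37 when 1 library was left out. By pair, leaving out a library gave 20 to 22 (B6 against 129), 9 to 11 (SJL against 129), 24 to 27 (SWR against 129), 23 to 25 (SJL against B6), 16 to 17 (SWR against B6) and 18 to 20 (SWR against SJL), and 0 to 0 for the sexes and the interaction. The share of reads on members then moved within 0.125 to 0.130% (B6), 0.116 to 0.123% (129), 0.109 to 0.114% (SWR) and 0.107 to 0.112% (SJL). As a share of TPM it was 0.0607% (SWR), 0.0570% (B6), 0.0559% (SJL) and 0.0513% (129). No difference among those named changed direction.

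Without the filter on low counts, all 89 members with a read entered the test, and 53 were called. By comparison there were 34 for B6 against 129, 43 for SWR against 129, 32 for SWR against SJL and 1 (Vmn1r86) for the interaction. With an FDR below 0.05 and no limit on the LFC, 58 of the 59 tested were called in any pair. By pair they were 44 (B6 against 129), 35 (SJL against 129), 48 (SWR against 129), 40 (SJL against B6), 38 (SWR against B6) and 47 (SWR against SJL). DESeq2 called 47, which held all 34. A test against the limit on the LFC (glmTreat of edgeR) called 28, all among the 34. The share of all genes called under these settings is not given here, so that their counts show the effect of the setting only. Members at or under the floor numbered 12 (129), 0 (B6), 8 (SJL) and 1 (SWR) at 0 reads, and 23 in B6 and 16 in SWR at 10 reads. The call of Vmn1r82 between B6 and 129 was lost without B6 male 2 (-0.99) or male 3 (-0.96). With the replicate block 34 members were called, the same 34. The replicate number is also given as the lane of a library, and each lane held every group of strain and sex. The replicate numbers did not pair the mice, since the correlation of same-numbered libraries ran from -0.29 to 0.48, and 5 of 32 libraries were closest to their own number.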
